A study of Mus musculus with 8 samples.

Results

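Slc7a5, Slc7a1 and Slc6a9 encode 3 amino acid transporters of the cell surface, and their RNAs were followed in m6A-eCLIP libraries of αTC1-6, an established mouse line of glucagon-making pancreatic alpha cells. The genes hold 29 of the 33774 sites in the deposited table, 15 in Slc7a5, 11 in Slc7a1 and 3 in Slc6a9, and they are 3 of its 6531 named genes. A site belongs to a gene if it lies inside the gene's RefSeq span on mm10. The 3 genes were selected on their low counts in the immunoprecipitated (IP) libraries of knockdown cells, so the IP values of knockdown against control cells, and the change of IP over Input, are given as a description with no test. That 1 Slc7a5 site was lower in Input was also known.

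Cells received an siRNA against Mettl14 (M14KD, replicates 3 and 4) or a scramble siRNA (SCR, replicates 1 and 2). Each replicate number gave 1 IP library, made with an antibody against m6A, and 1 Input library, so each of the 4 groups holds 2 libraries. The labels give no time of harvest, and they do not say whether replicates came from different cultures, so the spread behind every p-value may be technical. The knockdown is transient and of 1 cell line. Counts summed over all sites ran from 10207383 to 10554570 in the M14KD IP libraries and from 10573976 to 10918559 in the SCR IP libraries. In Input they ran from 3438530 to 3614519 in M14KD and from 3616603 to 3637740 in SCR. Levels are given in CPM, a library's counts divided by its sum over all sites and multiplied by 1000000.

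The m6A mark is a methyl group on adenosines of messenger RNA, written by an enzyme in which Mettl14 is the partner of the catalytic subunit Mettl3, and read by proteins that affect the stability and translation of the RNA. In m6A-eCLIP an anti-m6A antibody is crosslinked to RNA by ultraviolet light, and reads are counted at crosslinked positions. Input reads at the same positions follow how much of the RNA is present. Slc7a5 (LAT1) exchanges large neutral amino acids such as leucine across the membrane and works as a heterodimer with Slc3a2. Slc7a1 (CAT1) carries the cationic amino acids arginine and lysine, and Slc6a9 (GlyT1) takes up glycine together with sodium and chloride. Amino acids, arginine among them, are known stimuli of glucagon secretion from alpha cells.

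The labels were checked on Mettl14 and on cell type markers. Mettl14 (2 sites) had 42 and 25 IP counts in M14KD against 78 and 81 in SCR, and 32 and 22 Input counts in M14KD against 64 and 44 in SCR. Its edgeR log2 fold change, M14KD over SCR, was -0.96 in Input (SE 0.28, adjusted p = 0.26), which did not pass the threshold of 0.05 over all genes. Of 9 alpha cell markers 6 had sites in the table, with Gcg, the glucagon gene, highest among them at 48360 to 57980 CPM over the Input libraries. Their summed Input level was 69810 to 70450 CPM in M14KD and 58990 to 62230 CPM in SCR, and the summed IP level was 21610 to 22210 CPM in M14KD and 17590 to 18610 CPM in SCR. The part of this difference in the results below was not tested. None of 6 beta cell markers, Ins1 and Ins2 among them, 2 delta cell, 2 PP cell or 6 non-endocrine markers had a site in the table, so their levels are not known from it.

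All 15 Slc7a5 sites lay within a stretch of 490 bases, at positions 121882374 to 121882863 of chromosome 8, inside a gene span of chr8:121881146-121907686. This stretch starts 1228 bases from the end of the span with the lower coordinate. The 11 Slc7a1 sites lay within 963 bases, at 148331320 to 148332282 of chromosome 5, in a minus-strand span of chr5:148327410-148399904, and so 3910 to 4872 bases from its 3′ end. The 3 Slc6a9 sites, at 117868229, 117868282 and 117868318 of chromosome 4, lay within 90 bases near the 3′ end of the plus-strand span chr4:117835258-117869305, 987 to 1076 bases from that end. Over the 25893 named sites of known strand the median distance to the 3′ end of the span was 2190 bases, and 71.44% of sites were within 5000 bases of it. No site of the 3 genes lay in the span of another gene. Exons and untranslated regions were not used here. Neighbouring sites were close, with gaps down to 2 bases in Slc7a5, and may count the same reads, so the sites of a gene are not independent measurements.

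RefSeq promoter windows, 250 bases before to 50 bases after a start, were matched for Slc7a1 and Slc6a9. Slc7a5 had no window, so no motif was searched for it. The start used in these cells was not measured. The windows at the outermost annotated starts are shown for 2 transporters whose Input and IP counts are followed below. Both are on the coding strand of GRCm38.p6, at chr5:148399855-148400154 (minus strand) and chr4:117835008-117835307 (plus strand), and capitals mark GGGCGG or its complement, the core of the motif bound by Sp1-type factors.
Slc7a1: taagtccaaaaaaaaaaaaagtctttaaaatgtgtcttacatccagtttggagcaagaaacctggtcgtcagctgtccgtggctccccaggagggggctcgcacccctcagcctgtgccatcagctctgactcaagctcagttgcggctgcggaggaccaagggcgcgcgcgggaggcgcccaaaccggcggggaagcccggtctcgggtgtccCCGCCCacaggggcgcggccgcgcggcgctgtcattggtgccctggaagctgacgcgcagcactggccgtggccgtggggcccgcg
Slc6a9: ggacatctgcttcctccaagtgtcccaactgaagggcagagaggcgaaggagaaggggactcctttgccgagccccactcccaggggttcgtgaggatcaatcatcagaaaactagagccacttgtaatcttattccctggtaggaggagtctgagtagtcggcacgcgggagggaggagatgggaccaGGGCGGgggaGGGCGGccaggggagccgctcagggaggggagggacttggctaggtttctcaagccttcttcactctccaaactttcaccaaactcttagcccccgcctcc
The Slc7a1 window held 1 match, on the reverse strand, and the Slc6a9 window held 2 on the forward strand, at bases -61 and -51 from the start. The remaining windows of both genes, at inner starts, held 0 matches. Their GC content was 51.7% in Slc7a1 and 60.7% and 60.3% in Slc6a9. GGGCGG, searched on both strands, was found in 35.7% of 32851 RefSeq promoter windows of the same length. TGATGNAA, the core of the amino acid response element bound by Atf4, was found on either strand in 3.97% of these windows and in 0 of the 5 windows of Slc7a1 and Slc6a9. In the windows shown the GC content was 65.0% for Slc7a1 and 59.0% for Slc6a9, against a median of 52.7% over all windows.

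Slc7a5, Slc7a1 and Slc6a9 all had fewer antibody-selected counts in M14KD than in SCR, with M14KD means of 66.9%, 76.6% and 63.5% of the SCR mean. This is the measure on which the genes were selected, so it carries no test. Slc7a5 summed to 1012 and 1087 CPM in the M14KD IP libraries, against 1451 and 1686 CPM in the SCR IP libraries. Slc7a1 summed to 164.6 and 176.1 CPM in M14KD IP, against 208.6 and 236.3 CPM in SCR IP. Slc6a9, the least abundant of the 3, summed to 25.4 and 24.9 CPM in M14KD IP, against 35.6 and 43.6 CPM in SCR IP. For each gene both M14KD libraries lay below both SCR libraries, an order that 26.3% of the 6381 gene sums tested had in IP. The edgeR log2 fold changes, M14KD over SCR, were -0.56 for Slc7a5 (SE 0.08), -0.36 for Slc7a1 (SE 0.09) and -0.63 for Slc6a9 (SE 0.12), against a median of 0.01 over all genes. The share of gene sums called lower in IP at an adjusted edgeR p under 0.05 was 0.0%. An unadjusted edgeR p under 0.05 in either direction was found for 900 of 6381, and DESeq2 called 46, 25 higher and 21 lower. As these are bulk samples, fewer cells with the RNA and less RNA per cell cannot be told apart.

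**Figure D1:**
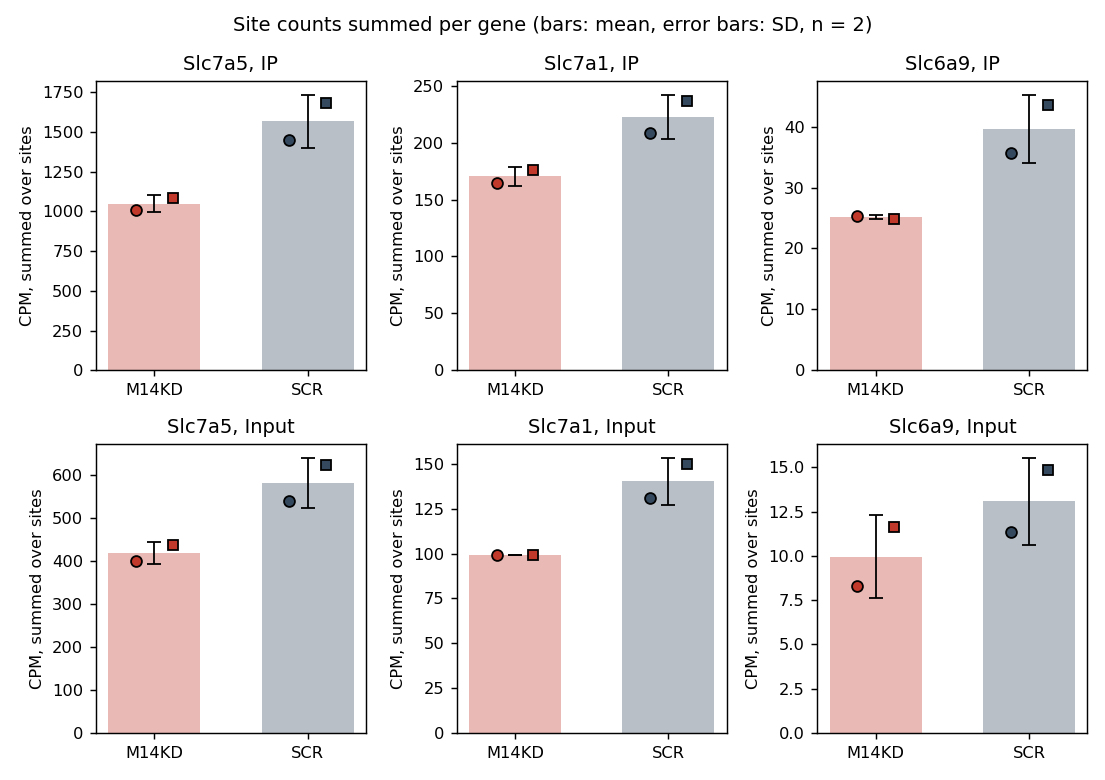
Gene sums of site counts, in CPM, in the IP libraries (top) and the Input libraries (bottom), with M14KD left of SCR; bars are means, error bars SD (n = 2), circles replicates 3 and 1, squares replicates 4 and 2. Both M14KD libraries lie below both SCR libraries in every IP panel, the selected measure, an order that 26.3% of all IP gene sums tested had. In Input they do so for Slc7a5 and Slc7a1, as for 21.1% of all Input gene sums tested. In Slc6a9 Input the groups overlap, with 8.3 and 11.6 CPM in M14KD and 11.3 and 14.8 CPM in SCR.

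The same genes were then compared in the Input libraries, on which they were not selected. Input is not an independent check, since 1 lower Slc7a5 Input site was known. IP counts also depend on how much of the RNA is present, and IP and Input libraries share replicate numbers. Slc7a5 had 1450 and 1506 Input counts in M14KD against 1955 and 2271 in SCR, or 419.6 ± 26.0 CPM in M14KD and 582.4 ± 59.2 CPM in SCR (SD, n = 2). Its Input level in M14KD was thus 72.0% of that in SCR, and the groups did not overlap. The edgeR log2 fold change was -0.47 (SE 0.09), which did not pass over the 5826 genes tested (adjusted p = 0.116). DESeq2 gave -0.47 with an adjusted p of 0.00577, and without SCR replicate 1 edgeR gave -0.58 with an adjusted p of 0.00935. Over all 11 alternatives the Slc7a5 value lay between -0.58 and -0.35 and the adjusted p between 0.00577 and 0.907.

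Slc7a1 had 359 and 341 Input counts in M14KD against 474 and 545 in SCR. These are 99.3 ± 0.107 CPM in M14KD and 140.4 ± 13.3 CPM in SCR (SD, n = 2), with no overlap. Its log2 fold change of -0.50 (SE 0.11) did not pass either (edgeR, adjusted p = 0.189), but did without SCR replicate 1 (-0.60, adjusted p = 0.0391). Over its alternatives the adjusted p ran from 0.0391 to 0.907. Slc6a9 had few Input counts, 30 and 40 in M14KD against 41 and 54 in SCR, and its groups overlapped. Its value of -0.40 (SE 0.26) did not pass (edgeR, adjusted p = 0.62), its 95% interval ran from -0.95 to 0.15, and the sign turned (0.15) with 1 site kept per 100 bases. That interval holds 0 as well as the values of Slc7a5 and Slc7a1, so a difference of their size was not detectable at this depth.

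For the order of both M14KD libraries below both SCR libraries, the share over all gene sums tested in Input was 21.1%, and Slc7a5 and Slc7a1 but not Slc6a9 had it. The Input log2 fold change of Slc7a5 was higher than that of 3.66% of the genes tested, that of Slc7a1 than 3.04% and that of Slc6a9 than 5.84%, and the median over all genes was -0.003. Gene sums called lower in Input made up 0.0% (edgeR, with 594 genes at an unadjusted p under 0.05 in either direction). DESeq2 called 22 in Input, 10 higher and 12 lower. SCR replicate 2 lay above SCR replicate 1 for all 3 genes in IP and in Input. In Slc7a5 the log2 ratio of these 2 SCR libraries in CPM was 0.22 in IP and 0.21 in Input, while SCR replicate 1 lay above the higher M14KD library by 0.42 in IP and 0.30 in Input.

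In the site-by-site view the lower IP counts of Slc7a5 in M14KD extended along the whole stretch. Its sites formed 3 groups parted by gaps of over 100 bases, with 8 sites at 121882374 to 121882492, 1 site at 121882606 and 6 sites at 121882766 to 121882863. The site with the highest IP level, 121882433, had 1416 and 1516 IP counts in M14KD against 2131 and 2416 in SCR. The isolated site at 121882606 had the lowest IP level, with 114 and 124 counts in M14KD against 194 and 199 in SCR. In the far group, site 121882766 had 476 and 488 IP counts in M14KD against 747 and 829 in SCR. At each of the 15 sites both M14KD IP libraries lay below both SCR IP libraries, as they did at 25.2% of all IP sites tested.

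Per-site IP log2 fold changes of Slc7a5, M14KD over SCR, ran from -0.65 at 121882606 (SE 0.14) to -0.47 at 121882479 (SE 0.08), with a median of -0.56. As a description of the selected measure, 14 of the 15 sites lay past the threshold of an adjusted edgeR p under 0.05. The share of all IP sites tested that did so in this direction was 0.375%, and no comparison is drawn from it, since the genes were chosen on these values. The site just outside the threshold was 121882785 (-0.48, SE 0.12), with 230 and 237 counts in M14KD against 302 and 383 in SCR. The site just inside it was 121882606. Without M14KD replicate 3 the fit called 0 of the 15 Slc7a5 sites, and 0 sites in the whole table. The share of each site in the gene's IP counts differed between M14KD and SCR by -0.698 to 0.574 percentage points. The highest site, for example, held 13.2% and 13.7% of the Slc7a5 IP counts in M14KD and 13.4% and 13.6% in SCR.

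**Figure D2:**
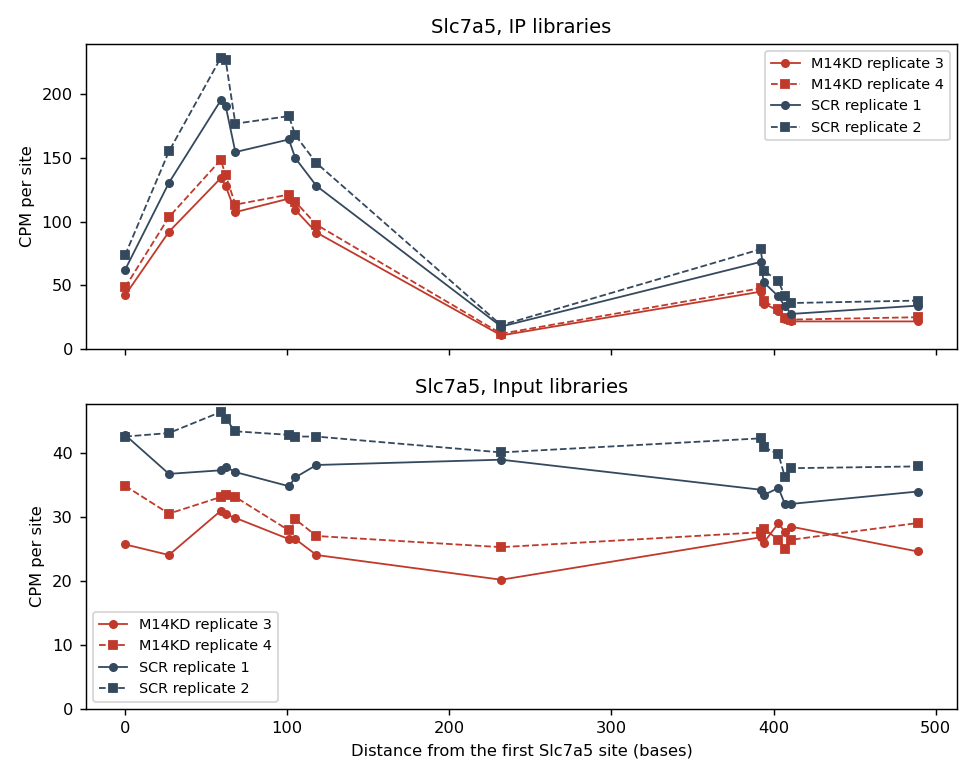
CPM at each of the 15 Slc7a5 sites against distance from the first site in bases, in the IP libraries (top) and the Input libraries (bottom); each line is 1 library, M14KD in red and SCR in dark blue, with points at sites. The IP profile has its peak near the start and a low point at 121882606, and the Input profile is nearly flat. The M14KD lines lie below the SCR lines at every site in both. That order was found at 25.2% of all IP sites tested and at 20.2% of all Input sites tested.

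Slc7a1 sites spanned a wider range of IP log2 fold changes than those of Slc7a5, with a median closer to 0. The SEs were also larger, 0.111 to 0.201 in Slc7a1 and 0.083 to 0.14 in Slc7a5, and the difference between the genes was not tested. IP counts of the Slc7a1 sites ran from 49 to 247 in M14KD and from 80 to 320 in SCR. Log2 fold changes ran from -0.64 at 148332133 (SE 0.20) to -0.24 at 148331772 (SE 0.12), with a median of -0.36. All 11 Slc7a1 sites had both M14KD IP libraries below both SCR IP libraries, as did 25.2% of all IP sites tested. As a further description of the selected measure, 0 of 11 were past the threshold, beside 0.375% of all IP sites tested called lower. With DESeq2 the number was also 0, and without SCR replicate 1 it was 4 with edgeR. The highest Slc7a1 site, 148332010, had 238 and 247 IP counts in M14KD against 309 and 320 in SCR.

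In Slc6a9, again as a description of the selected measure, the site 117868229 was past the threshold in IP (-0.80, SE 0.18), with 79 and 69 counts in M14KD against 119 and 153 in SCR. Site 117868282 had 85 and 73 IP counts in M14KD against 120 and 132 in SCR, and site 117868318 had 104 and 112 in M14KD against 150 and 176 in SCR. Neither was called, at -0.60 (SE 0.17) and -0.52 (SE 0.15). The call at 117868229 was lost with DESeq2 and without SCR replicate 2, M14KD replicate 3 or M14KD replicate 4. Site by site, then, both M14KD libraries lay below both SCR libraries at all 29 sites in IP, as at 25.2% of all IP sites tested. The genes were selected on this measure, and neighbouring sites may count the same reads, so these are not 29 separate measurements.

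In the Input libraries 1 of the 29 sites passed the test, Slc7a5 121882606. It had 73 and 87 Input counts in M14KD against 141 and 146 in SCR, 57.5% of the SCR level in CPM. The edgeR log2 fold change was -0.78 (SE 0.16, adjusted p = 0.0372), and 0.0232% of all Input sites tested were called lower. Whether this site passed depended on the setting, as it did not with DESeq2, with no filter on low counts, or without SCR replicate 2, M14KD replicate 3 or M14KD replicate 4. It is also the Slc7a5 site with the fewest IP counts. The other 14 Slc7a5 sites had Input log2 fold changes from -0.64 to -0.32 that did not pass. Each of the 15 had both M14KD Input libraries below both SCR Input libraries, an order that 20.2% of all Input sites tested had. Each also had an unadjusted edgeR p under 0.05, as did 2619 of the 30147 Input sites tested.

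Of the Slc7a1 sites 9 of 11 had that order in Input, with log2 fold changes from -0.74 to -0.24 and 0 were called by edgeR or DESeq2. An unadjusted edgeR p under 0.05 was found at 4 of the 11, as at 2619 of the 30147 Input sites tested. The 2 exceptions were 148331834, with 31 and 42 Input counts in M14KD against 47 and 43 in SCR, and 148332042, with 40 and 30 in M14KD against 38 and 57 in SCR. Slc6a9 had 1 of 3 sites in that order, 117868229, with 14 and 13 Input counts in M14KD against 31 and 18 in SCR. At 117868318 the Input counts were 12 and 14 in M14KD and 4 and 20 in SCR, so that the 2 SCR libraries spanned both M14KD libraries.

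**Figure D3:**
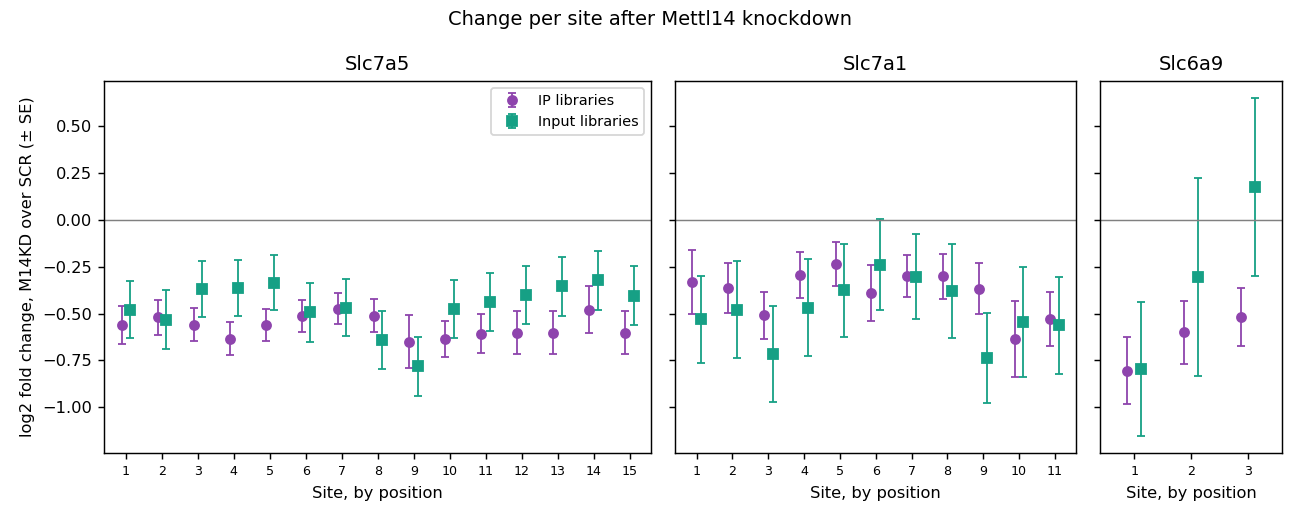
Log2 fold change, M14KD over SCR, with its SE, at each site in order of position, in the IP libraries (circles) and the Input libraries (squares). All 29 IP values and 28 of the 29 Input values lie below 0, and the exception is the Slc6a9 site 117868318 at 0.17 in Input (SE 0.47). The median over all sites tested was 0.006 in IP and 0.003 in Input. The genes were selected on IP, and neighbouring sites may count the same reads.

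How strongly the antibody selected each RNA was measured as IP over Input within each genotype. These values share the IP libraries with the selection, and they are relative to a scaling under which the median gene lies near 0. In M14KD the edgeR log2 values of the gene sums were 0.64 for Slc7a5 (SE 0.09, adjusted p = 1.72e-05), 0.09 for Slc7a1 (SE 0.11, adjusted p = 0.44) and 0.65 for Slc6a9 (SE 0.21, adjusted p = 0.0109). In SCR they were 0.74 for Slc7a5 (SE 0.09, adjusted p = 3.31e-06), -0.03 for Slc7a1 (SE 0.10, adjusted p = 0.803) and 0.90 for Slc6a9 (SE 0.19, adjusted p = 0.000438). Slc7a5 and Slc6a9 were thus enriched in both genotypes, as were 35.5% of gene sums in M14KD and 35.2% in SCR, while Slc7a1 lay near the typical gene. In M14KD the Slc7a5 value was above that of 73.8% of genes, the Slc7a1 value above 52.7% and the Slc6a9 value above 74.5%, and in SCR the shares were 78.3%, 47.2% and 83.9%. The Slc6a9 call in M14KD was lost without M14KD replicate 3 (0.43, adjusted p = 0.231).

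In CPM alone, without that scaling, IP over Input was 2.52 and 2.48 for Slc7a5 in M14KD, against 2.69 and 2.7 in SCR. For Slc7a1 it was 1.66 and 1.78 in M14KD, against 1.59 and 1.58 in SCR, and for Slc6a9 3.06 and 2.14 in M14KD, against 3.14 and 2.94 in SCR. With column totals in place of the scaling the median of all genes moved up by 0.71 in M14KD and by 0.72 in SCR on the log2 scale. The M14KD value of Slc7a1 then passed (0.80, adjusted p = 3.83e-06 by edgeR), and its SCR value turned sign and passed (0.69, adjusted p = 1.25e-05). Relative to the median gene Slc7a1 was close to 0 under both.

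Within Slc7a5 sites were called in both directions. In the first group, 7 of 8 sites were enriched, with log2 values of up to 1.42 in M14KD and 1.62 in SCR, both at 121882433. The isolated site 121882606 was depleted, at -1.70 in M14KD (SE 0.17) and -1.83 in SCR (SE 0.14, adjusted p = 2.76e-13 by edgeR). The far group had 0 enriched and 4 depleted of 6 sites in each genotype, with values between -1.01 and 0.05 in M14KD and between -0.84 and 0.22 in SCR. Over all 15 sites 7 were called higher and 5 lower in each genotype, while 33.8% of all sites were higher and 33.1% lower in M14KD, and 34.0% were higher and 33.4% lower in SCR. Input counts were similar along Slc7a5, 73 to 120 per site in M14KD and 116 to 169 in SCR, so the IP counts set the shape of this profile. With column totals in place of the scaling, the calls were 10 higher and 1 lower in M14KD and 11 higher and 1 lower in SCR, so the number of sites called lower depends on the scaling. Site 121882606 was the 1 called lower there in each genotype, at -0.98 in M14KD (SE 0.17) and -1.11 in SCR (SE 0.14).

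Slc7a1 had 3 sites called higher and 3 lower in M14KD, and 1 higher and 2 lower in SCR. With the replicate block, which pairs the IP and Input library of a number, the SCR counts became 2 higher and 4 lower. With column totals they were 7 higher and 0 lower in M14KD and 6 higher and 1 lower in SCR, and with DESeq2 0 higher and 2 lower in each genotype. Site 148331447 was enriched in both genotypes (0.60 in M14KD, SE 0.22, and 0.49 in SCR, SE 0.19), and 148331320 and 148332133 were depleted in both. The calls of higher sites in Slc7a1 were lost in M14KD with DESeq2 and without M14KD replicate 4, and in SCR with DESeq2 and without SCR replicate 1 or 2. In Slc6a9 117868282 and 117868318 were enriched in both genotypes, at 0.94 and 0.78 in M14KD and at 1.23 and 1.48 in SCR. In M14KD these Slc6a9 calls fell to 0 with DESeq2 and without M14KD replicate 3, and to 1 without M14KD replicate 4. Site 117868229 was not enriched (0.18 in M14KD, SE 0.32, and 0.19 in SCR, SE 0.25).

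**Figure D4:**
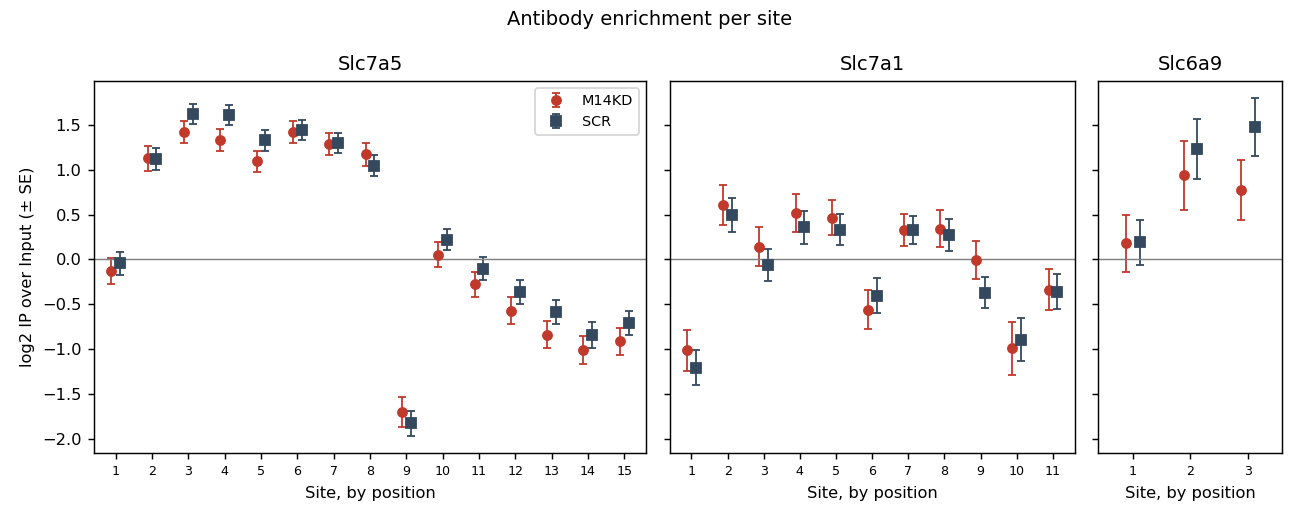
Log2 of IP over Input, with its SE, at each site in order of position, in M14KD (circles) and SCR (squares). Slc7a5 sites 2 to 8 are the enriched ones and site 9 is 121882606, at -1.70 in M14KD and -1.83 in SCR; the genotypes lie close together at most sites.

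Whether the antibody-selected counts differed by more than the RNA itself was read from the difference in IP over Input, M14KD minus SCR. It contains the IP contrast used for selection and is given without a test. On the log2 scale this difference was -0.10 for Slc7a5 (SE 0.13, 95% interval -0.38 to 0.18), 0.12 for Slc7a1 (SE 0.15, interval -0.19 to 0.43) and -0.25 for Slc6a9 (SE 0.29, interval -0.86 to 0.36). All 3 of these intervals include 0. With the replicate block the values were nearly the same and the SEs smaller. They were -0.10 for Slc7a5 (SE 0.06), 0.12 for Slc7a1 (SE 0.10) and -0.25 for Slc6a9 (SE 0.25), also without a test. Per site the values ran from -0.28 to 0.12 in Slc7a5, from -0.16 to 0.36 in Slc7a1 and from -0.70 to -0.01 in Slc6a9. Of these, 12 of 15, 3 of 11 and 3 of 3 were below 0, and the median over all sites tested was -0.002. Over the table, 0.0% of gene sums and 0.0% of sites were called in this contrast (edgeR, with 168 genes and 1242 sites at an unadjusted p under 0.05). Slc7a5 had an IP difference of -0.56 beside an Input difference of -0.47, Slc7a1 -0.36 beside -0.50, and Slc6a9 -0.63 beside -0.40.

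The genes whose pattern over the 8 libraries was most like that of each transporter were found by the root mean square difference in log2(CPM + 1), after centring the IP and the Input libraries separately. For Slc7a5 these were Pck2 (0.0584), the mitochondrial enzyme of phosphoenolpyruvate synthesis, Chac1 (0.0606), which degrades glutathione, Wars (0.0687), the tryptophanyl-tRNA synthetase, Adipor2 (0.0759), an adiponectin receptor, and Slc7a1 (0.0771), while the median over the 4581 genes compared was 0.29. For Slc7a1 they were Cep170b (0.0364), Pck2 (0.0401), Lonp1 (0.0423), a mitochondrial protease, Jund (0.0448), an AP-1 transcription factor, and Aldh18a1 (0.0475), which starts proline synthesis. Slc6a9 was nearest to Gpt2 (0.0958), the mitochondrial alanine transaminase, Reep6 (0.102), Slc7a5 (0.103), Flna (0.105), an actin crosslinker, and Ksr2 (0.117). The 3 transporters were not each other's nearest throughout. By the same measure Slc7a1 was in place 5 and Slc6a9 in place 24 for Slc7a5, Slc7a5 was in place 22 and Slc6a9 in place 544 for Slc7a1, and Slc7a5 was in place 3 and Slc7a1 in place 54 for Slc6a9. Likeness here rests on 4 libraries of each kind. It takes in both the step between M14KD and SCR and the differences between replicates, and their parts were not separated.

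No gene sum of the other amino acid transporters passed in IP or Input by edgeR. Those of Slc7a5, Slc7a1 and Slc6a9 did not pass in Input in the main edgeR fit. In IP, on which these 3 were selected, the main fit called no gene sum of the table. DESeq2 put Slc7a5 and Slc7a1 past the threshold in IP and gave no adjusted p for Slc6a9. Of 45 other transporters listed, 17 had sites in the table and 16 were tested. Both M14KD libraries lay below both SCR libraries for 8 of the 17 in IP and for 9 in Input. Over all gene sums tested the shares were 26.3% in IP and 21.1% in Input. Slc3a2, the partner subunit of Slc7a5, had no site. In IP 10 of the 16 had log2 fold changes below 0 and 6 above, with a median of -0.05 against 0.01 over all genes, and 0 were called, while 3 had an unadjusted edgeR p under 0.05 and DESeq2 called 0 (with no adjusted p for 3). In Input 11 were below 0 and 5 above, with a median of -0.19 against -0.003 over all genes, and 0 were called, while 1 had an unadjusted p under 0.05 and DESeq2 called 0 (with no adjusted p for 8). At the site level 0 of 143 tested IP sites and 0 of 142 tested Input sites of these genes were called by edgeR.

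Among the 6 of them with the highest Input counts, the neutral amino acid exchanger Slc1a4 (ASCT1) had -0.21 in IP (SE 0.09) and -0.19 in Input (SE 0.10). Slc7a2, a cationic amino acid transporter related to Slc7a1, had 0.13 in IP (SE 0.07) and 0.03 in Input (SE 0.09), on the other side of 0 from Slc7a1. Its 95% interval includes 0 in IP and in Input. Slc38a10 had -0.12 in IP (SE 0.09) and -0.27 in Input (SE 0.10), and Slc38a5, a glutamine transporter of alpha cells, had -0.10 in IP (SE 0.09) and -0.19 in Input (SE 0.10). Slc7a14 had 0.01 in IP (SE 0.07) and -0.13 in Input (SE 0.10). Slc7a6, a basic and neutral amino acid exchanger, had -0.07 in IP (SE 0.07) and 0.03 in Input (SE 0.10). None of these passed (edgeR).

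**Figure D5:**
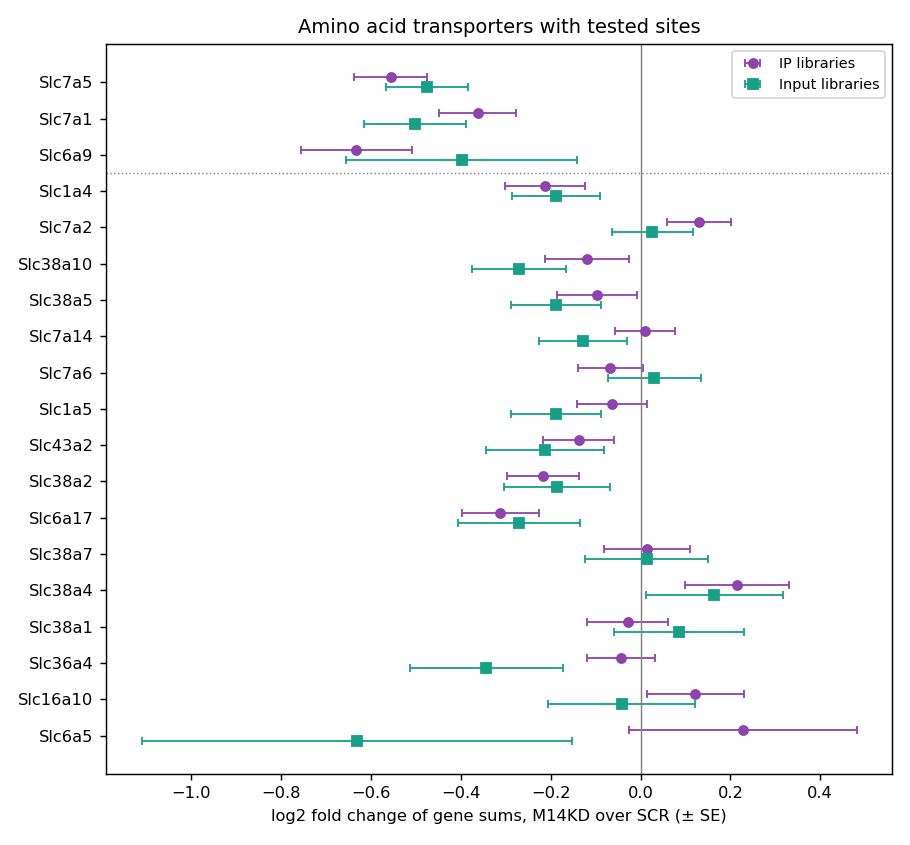
Log2 fold change of gene sums, M14KD over SCR, with its SE, in the IP libraries (circles) and the Input libraries (squares), for Slc7a5, Slc7a1 and Slc6a9 (above the dotted line) and the other 16 tested transporters in order of mean Input count. The IP values of the 3 genes, between -0.63 and -0.36, lie below those of the other 16, the lowest of which is Slc6a17 at -0.31. The 3 were selected for this. In Input the 3 genes lie between -0.50 and -0.40. Slc6a5 lies below them there, at -0.63 (SE 0.48, mean Input count 9.75), and the rest lie above them.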

How the data were processed

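The authors deposited 1 table of read counts at sites for 8 m6A-eCLIP libraries. The tools named in the submitters' processing notes include STAR, cutadapt and UMI-tools, and the build is mm10. The sources used here do not give versions or the rules by which sites were called, counted and filtered, so a read may be counted at several neighbouring sites. The deposited counts, 1 column a library per the file headers, are whole and not normalized; 0 columns were unused.

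The 3 genes, the list of 45 transporters and the markers were chosen with earlier results of these data known. Named were the 3 genes, Mettl14, Slc3a2, list members past the threshold, the 6 with the highest Input count, and the 5 genes most like each of the 3 (mean count of at least 100). Sites were named by RefSeq spans of GRCm38.p6, which names 94.53% of them, with promoter windows from RefSeq too. Counts, per site and summed per gene, were fitted over the whole table with edgeR 4.0.16 in R 4.3.3 (filterByExpr, TMM, quasi-likelihood F-test, Benjamini-Hochberg adjustment, threshold 0.05). M14KD was compared with SCR in 4 IP and in 4 Input libraries, and IP over Input was a contrast of 1 model of all 8. All 29 sites passed the filter. SEs come from the fold change and its F value. The median SE was 0.111 for IP and 0.167 for Input gene sums.

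IP and Input libraries share replicate numbers in the labels. Their deviations from group means, over 6379 genes, correlated at r = 0.175 in M14KD and 0.245 in SCR (with 2 libraries a group both members of a pair give 1 value), so the fit with the number as a replicate block was also made. M14KD and SCR share no number. Other alternatives were DESeq2 1.42.0, other scalings and filters, all 8 libraries in 1 model, 1 site per 100 bases, and leaving out each replicate.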

Additional observations from a re-analysis of the deposited data

How the results depend on the processing

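With 2 libraries a group, counts of calls depended on the setting, and the cause was not tested. Gene sums called in Input, 0 with edgeR, were 22 with DESeq2, 1 with column totals, 1 with all 8 libraries in 1 model, 3 with 1 site per 100 bases, and 0 to 34 with a replicate left out. Called in IP, they were 46 with DESeq2, 1 with its size factors, 1 with column totals, 11 with all 8 libraries, 1 with 1 site per 100 bases, and 11 to 182 with a replicate left out. Input sites called, 28 in all, were 0 with no filter, 49 with a mean count of at least 20, and 0 to 40 with a replicate left out. IP sites called, 210 in all, were 120 with DESeq2 and 0 (without replicate 3) to 1422 (without replicate 1). For the change of IP over Input, 1 site was called with the replicate block and 0 to 1 with a replicate left out.

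With a replicate left out, IP log2 fold changes ran from -0.66 to -0.45 in Slc7a5, from -0.45 to -0.28 in Slc7a1 and from -0.78 to -0.49 in Slc6a9, and in Input from -0.58 to -0.35, from -0.60 to -0.39 and from -0.65 to -0.17. All stayed below 0. Slc7a5 passed in Input with DESeq2 (-0.47) and without replicate 1, and Slc7a1 without replicate 1. DESeq2 gave no adjusted p for Slc7a1 in Input. With 1 site per 100 bases Slc6a9 had 0.15 in Input, 0.77 for IP over Input in M14KD (adjusted p = 0.0628 by edgeR) and -0.68 for the change of IP over Input. IP over Input of Slc6a9 in M14KD ran from 0.43 to 0.90 with a replicate left out. With column totals IP over Input of Slc7a1 was 0.80 in M14KD and 0.69 in SCR, as the median of all genes moved with it. The replicate block changed no call of the 3 gene sums in IP over Input (Slc7a5 0.64 in M14KD and 0.74 in SCR). Leaving out a replicate leaves 1 group with a lone library, assumed to vary like the others. Slc6a9, with 4 to 31 Input counts per site, is limited most by depth, and a loss common to all sites would not show, since every scaling uses site counts alone.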

Other observations

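Log2 IP over Input of the other amino acid transporters, a measure of how far the antibody selected their RNA, ran from -1.73 to 1.71 in M14KD and from -1.81 to 1.43 in SCR. Slc36a4, a proline and tryptophan transporter, had the highest log2 IP over Input of the 16 tested, 1.71 in M14KD (SE 0.12) and 1.43 in SCR (SE 0.12), above the gene sums of Slc7a5 (0.64 in M14KD and 0.74 in SCR) and Slc6a9 (0.65 in M14KD and 0.90 in SCR). The lowest was Slc38a5, at -1.73 in M14KD (SE 0.10) and -1.81 in SCR (SE 0.10), beside -1.70 in M14KD and -1.83 in SCR at the Slc7a5 site 121882606. In M14KD 5 of the 16 were called higher by edgeR, where 35.5% of all gene sums were, and in SCR 4 were, where 35.2% of all gene sums were. Slc38a7, a glutamine transporter of the lysosome, was among those called higher, at 0.94 in M14KD and 0.96 in SCR; Slc38a7 was chosen after its values were seen, as were Slc36a4 and Slc38a5 in this place.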
